A study of Mus musculus with 16 samples.

Results

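The genes described here encode the voltage-gated sodium channels, the voltage-gated calcium channels and the hyperpolarization-activated HCN channels of the mouse. They were picked by a rule on gene symbols: sodium channel alpha and beta subunits (Scn), calcium channel alpha1 and alpha2delta subunits (Cacna), calcium channel beta subunits (Cacnb) and HCN channels (Hcn). This group of genes was chosen with earlier results of these data known. The rule found 35 of the 48709 genes in the count table, namely 9 sodium alpha, 4 sodium beta, 10 calcium alpha1, 4 alpha2delta, 4 calcium beta and 4 Hcn genes. The sodium alpha gene that the table lists under the older symbol Scn2a1 was not found by the rule. It is not counted among the 35 genes, and its values are given once beside theirs.

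RNA was sequenced from synaptosomes (SYN), the pinched-off synaptic endings isolated from cerebral cortex, and from total homogenate (TH), the cortex material before that enrichment. Synaptosomes came from C57BL/6 mice aged 3 weeks, 5 months and 19 months, and total homogenate from mice aged 5 months, with 4 libraries in each of the 4 groups. All 16 libraries were made from 10 ng of RNA depleted of 18S and 28S ribosomal RNA, and no group carried a transgene or a treatment in the labels. The labels call the 4 libraries of an age biological replicates and give neither the sex nor the number of animals behind a library.

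Sodium channel alpha subunits form the pore that starts and carries the action potential, and beta subunits anchor the pore and tune its gating. Calcium channel alpha1 subunits form the pores that let calcium into the synaptic ending and trigger transmitter release, while alpha2delta and beta subunits bring those pores to the membrane. HCN channels open when a membrane becomes more negative, set its resting potential and shape how dendrites and synaptic endings integrate input. In the cortex the P/Q-type pore (Cacna1a) and the N-type pore (Cacna1b) are known for transmitter release, and Scn8a for the axon initial segment and nodes of Ranvier.

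In 2 genes, Cacna1b and Cacnb4, the authors' deposited table of intron usage held an event past its threshold between ages, and the exons involved are shown here for reference. All are on the minus strand of mouse chromosome 2 (build GRCm38), with sequences from the GENCODE vM21 transcripts, 5′ to 3′. The Cacna1b cassette exon lies at chr2:24682976-24683038 and has 63 bases, a multiple of 3. The exon after it begins with CAG, marked by capitals, which are lost when a later splice acceptor is used; its first 30 bases lie at chr2:24679614-24679643. The coding part of the usual first exon of Cacnb4 lies at chr2:52676271-52676330, and its capitals mark the start codon.
Cacna1b cassette exon: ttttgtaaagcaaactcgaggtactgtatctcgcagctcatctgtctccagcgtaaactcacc
Cacna1b next exon, first 30 bases: CAGgcagcagaactcggccaaggcgcgctc
Cacnb4 first exon, coding part: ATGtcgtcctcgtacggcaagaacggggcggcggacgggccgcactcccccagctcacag

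Libraries held 10.6 to 21.7 M counts (megacounts), of which 17.6% to 52.3% fell on mitochondrial ribosomal RNA, leaving 6.56 to 14.6 M counts outside the mitochondrial genome. That share moved with fraction and age: it was 42.6% to 51.7% in SYN at 3 weeks, 36.1% to 45.3% in SYN at 5 months, 32.9% to 52.3% in SYN at 19 months and 17.6% to 22.0% in TH. With all genes of the mitochondrial genome removed, 24 channel genes were called in SYN over TH, 13 at 5 months and 15 at 19 months over 3 weeks, against 24, 13 and 13 with them. The 35 channel genes took 0.244% to 0.560% of a library's counts. Levels are given as CPM, counts per megacount of a library after TMM scaling over all 16 libraries, or as CPM per kb of gene model where genes are compared with each other. The nuclear RNA Malat1 was at 4796 CPM in SYN at 5 months replicate 4, above the 942 to 1449 CPM of the other SYN libraries of that age. SYN at 19 months replicate 1 had the 52.3% share of mitochondrial ribosomal RNA, and it was the lowest of its group for 24 of 32 tested channel genes. SYN at 3 weeks replicate 1, with 51.7%, was the lowest of its group for 26 of 32. Synaptosomes were distinct from homogenate in their markers. Summed over the list, 8 nuclear RNAs were at 1630 to 6908 CPM in SYN at 5 months and 21197 to 25147 CPM in TH, and Camk2a, the dendritic kinase mRNA of excitatory neurons, averaged 4643 CPM in SYN, against 1358 CPM in TH.

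Synaptosomes at 5 months were first set against total homogenate of the same age, which asks which channel mRNAs are held at a higher share in the synaptic fraction. Most channel mRNAs were at a higher level in SYN, led among well-detected genes by Hcn2, 3.90-fold higher, and the T-type calcium pore Cacna1i, 3.26-fold higher. Of the 32 channel genes with enough counts to test, 22 were higher and 2 lower in SYN at an adjusted p under 0.05 (edgeR's quasi-likelihood test with Benjamini-Hochberg adjustment over all genes). That is 75% of the channel genes, beside 50.1% of all 17374 genes tested, of which 24.5% were higher and 25.6% lower. In 21 channel genes every SYN library was above every TH library and in 2 every SYN library was below, together 71.9%, beside 47.9% of all genes. The median log2 fold change was 0.79 over the channel genes and −0.05 over all genes. The other 3 genes were not tested: Scn4a, the skeletal muscle sodium pore, had 0 counts in all libraries, the sensory neuron pore Scn11a had 55 and the retinal calcium pore Cacna1f had 12.

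**Figure D1:**
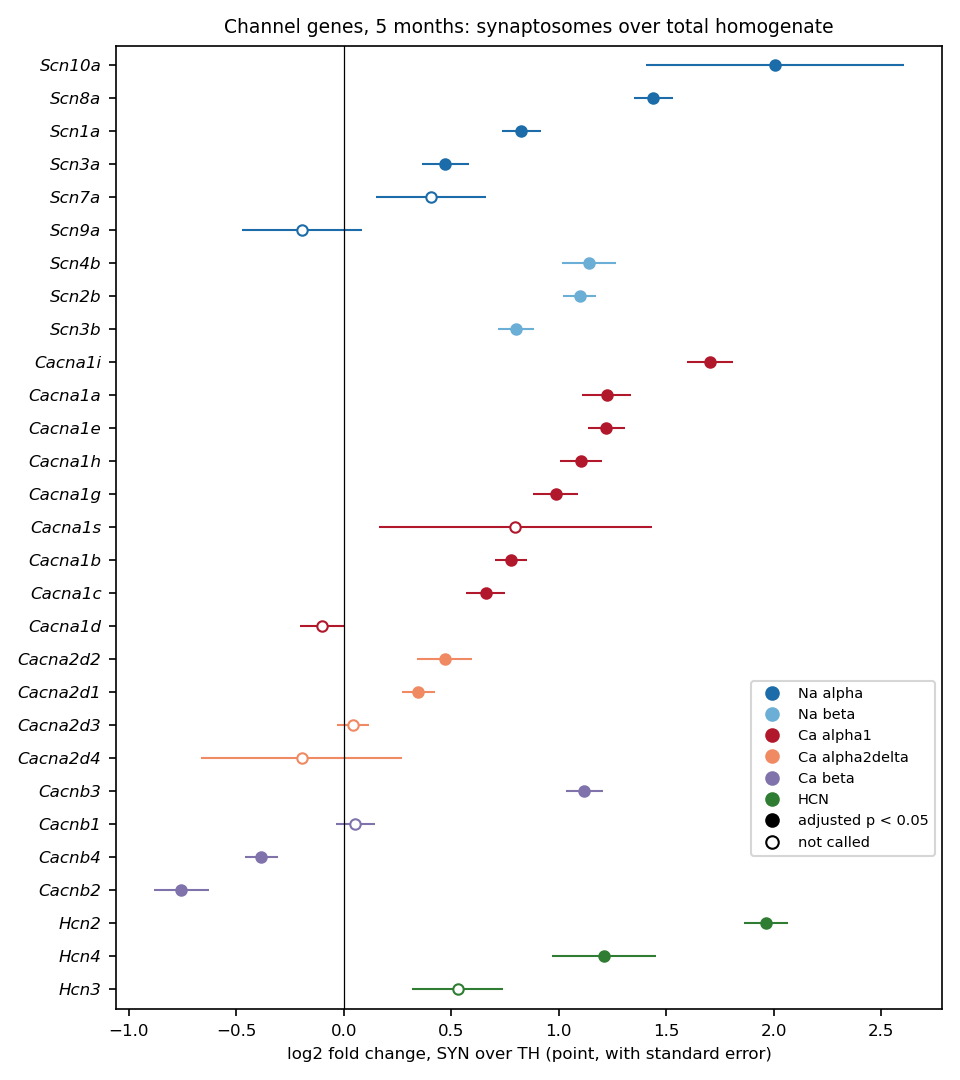
Log2 fold change of 29 tested channel genes, SYN over TH at 5 months, with standard errors, grouped by family; filled points passed the adjusted p and open points did not. Called genes to the right of 0 are led by Scn10a, Hcn2 and Cacna1i, and the called Cacnb4 and Cacnb2 lie to the left.

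Among sodium channel pores, Scn8a, Scn1a, Scn3a and Scn10a were higher in SYN. Scn8a (ENSMUSG00000023033, chr15:100869858-101045938, plus strand) was at 963, 1007, 1011 and 799.7 CPM in the 4 SYN libraries, against 384, 373, 347 and 322 CPM in the 4 TH libraries. Every SYN library was far above every TH library, and the log2 fold change was 1.44 ± 0.0905 (SE; adjusted p = 1.13e-08, edgeR). Scn1a, a pore prominent in fast-spiking interneurons, averaged 234 ± 26.5 CPM in SYN, against 135 ± 11.7 CPM in TH (SD, n = 4 each), a log2 fold change of 0.83 (adjusted p = 2.58e-06). Scn3a, the pore typical of the embryonic brain, had the smallest difference of these 4 genes, 59.5 ± 8.70 CPM in SYN, against 43.8 ± 4.22 CPM in TH (log2 0.47, adjusted p = 0.00195). The sensory neuron pore Scn10a had 14, 15, 10 and 21 raw counts in SYN, against 2, 15, 3 and 8 raw counts in TH. Its SYN libraries were all higher once scaled, and its log2 fold change of 2.01 ± 0.601 (adjusted p = 0.0118) was 1.77 (adjusted p = 0.0549) without TH replicate 3. The sensory neuron pore Scn9a (log2 −0.20, adjusted p = 0.591) and Scn7a, a sodium sensor that is not opened by voltage (log2 0.41, adjusted p = 0.207), were not called. Scn2a1, outside the 35 genes, averaged 706 ± 62.8 CPM in SYN, against 316 ± 7.81 CPM in TH (log2 1.19).

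Of the sodium beta genes, Scn4b, Scn2b and Scn3b were higher in SYN. Scn4b, linked to resurgent sodium current, averaged 112 ± 15.7 CPM in SYN, against 52.2 ± 8.61 CPM in TH, and Scn2b averaged 252 ± 18.8 CPM in SYN, against 121 ± 5.12 CPM in TH. Their log2 fold changes were 1.14 ± 0.123 (adjusted p = 4.11e-06) and 1.10 ± 0.0755 (adjusted p = 2.54e-08). For Scn3b the log2 fold change was 0.80 (adjusted p = 1.5e-06).

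Of 9 tested calcium pores, 7 were higher in SYN and none was lower. That is 77.8% called, beside 50.1% of all genes tested. Cacna1i (ENSMUSG00000022416, chr15:80287238-80398279, plus strand) was at 162, 194, 177 and 149 CPM in SYN, against 58.3, 58.5, 54.0 and 43.6 CPM in TH. The groups did not come near each other, and the log2 fold change was 1.71 ± 0.107 (adjusted p = 1.22e-08). The other T-type pores, which open at negative potentials, were higher by less: Cacna1h by 1.11 and Cacna1g by 0.99 on the log2 scale (adjusted p = 3.04e-07 and 1.77e-06). Among the pores of transmitter release, Cacna1a was at 506, 529, 516 and 437 CPM in SYN, against 249.9, 246, 204 and 171 CPM in TH, without overlap. Its log2 fold change was 1.22 ± 0.116 (adjusted p = 1.12e-06). The R-type pore Cacna1e had the same value, 1.22 ± 0.0857 (adjusted p = 3.09e-08), and averaged 1018 ± 99.3 CPM in SYN, against 447 ± 31.4 CPM in TH. Cacna1b was higher by 0.78 (adjusted p = 7.04e-07).

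The 2 L-type pores expressed in neurons did not give the same result. Cacna1c averaged 163 ± 17.6 CPM in SYN, against 106 ± 8.94 CPM in TH, without overlap (log2 0.66, adjusted p = 2.77e-05). Cacna1d was at 70.4, 86.4, 64.6 and 61.9 CPM in SYN, against 75.3, 84.2, 82.3 and 69.0 CPM in TH. These groups overlapped, the log2 fold change was −0.10 ± 0.105 and the gene was not called (adjusted p = 0.456). The difference between the 2 genes was not itself tested. Exons of Cacna1d share 589 bases with Chdh on the opposite strand. The skeletal muscle L-type pore Cacna1s was at 1.22 ± 1.05 CPM in SYN, against 0.706 ± 0.263 CPM in TH and was not called (adjusted p = 0.318).

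**Figure D2:**
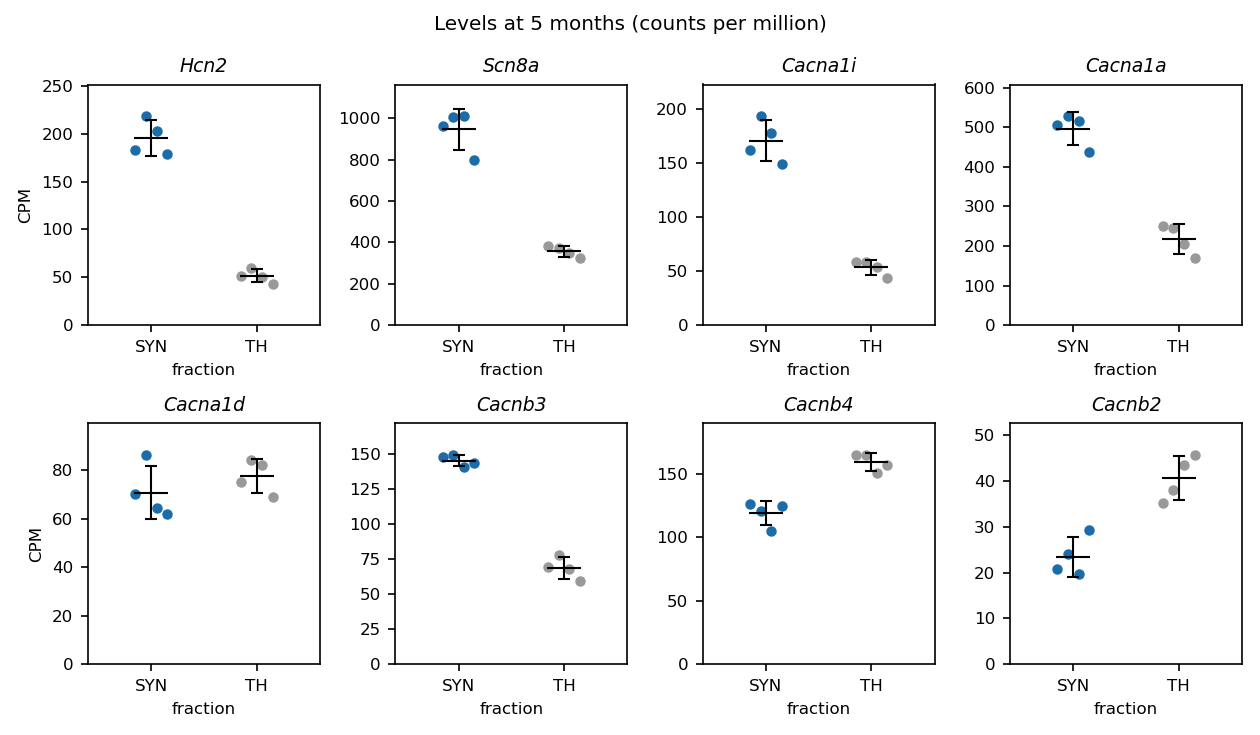
Level of 8 channel genes in each of 4 SYN and 4 TH libraries at 5 months, in CPM from 0; points are libraries, with the group mean and SD. SYN libraries stand above all TH libraries for Hcn2, Scn8a, Cacna1i, Cacna1a and Cacnb3, overlap them for Cacna1d, and stand below them for Cacnb4 and Cacnb2.

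Of the 8 auxiliary calcium channel genes, 3 were higher and 2 lower in SYN. Called genes made up 50% of the alpha2delta genes and 75% of the beta genes. Of all genes tested, 50.1% were called, 24.5% higher and 25.6% lower. Of the 4 alpha2delta genes, which bind gabapentin in the case of Cacna2d1 and Cacna2d2, these same 2 were higher in SYN. Cacna2d1 averaged 182 ± 17.7 CPM in SYN, against 147 ± 3.39 CPM in TH (log2 0.35, adjusted p = 0.00179). Cacna2d2 averaged 49.2 ± 8.53 CPM in SYN, against 36.4 ± 4.82 CPM in TH, and was called although the groups overlapped (log2 0.47, adjusted p = 0.00699). Cacna2d3 was not called, with 59.1 ± 2.1 CPM in SYN, against 58.8 ± 2.33 CPM in TH, nor was the rare Cacna2d4.

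The beta subunits, which bind the inner side of the pore, held both channel genes that were lower in SYN. Cacnb4 (ENSMUSG00000017412, chr2:52428320-52676831, minus strand) was at 126, 121, 105 and 125 CPM in SYN, against 165, 165, 151 and 157 CPM in TH. Cacnb2 was at 20.7, 24, 19.6 and 29.3 CPM in SYN, against 35.2, 38.1, 43.5 and 45.7 CPM in TH. Neither pair of groups overlapped, and the log2 fold changes were −0.38 ± 0.0771 (adjusted p = 0.000793) for Cacnb4 and −0.76 ± 0.13 (adjusted p = 0.000212) for Cacnb2. Cacnb3 went the other way, with 147, 149, 140.2 and 143 CPM in SYN, against 69.0, 77.8, 67.7 and 59.0 CPM in TH. Its SYN libraries were all higher, by 1.12 ± 0.0859 on the log2 scale (adjusted p = 7.4e-08). Cacnb1 was not called (log2 0.05, adjusted p = 0.648). In the annotation, exons of Cacnb4 share 1433 bases and those of Cacnb2 share 618 bases with a gene on the opposite strand, and no source used here gives the strand setting of the counting, so reads of such pairs may not be separable.

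Of the HCN genes, Hcn2 and Hcn4 were higher in SYN. Hcn2 (ENSMUSG00000020331, chr10:79716634-79736108, plus strand) was at 182, 219, 202 and 179 CPM in SYN, against 51.8, 59.9, 50.2 and 43.3 CPM in TH. Every SYN library was far above every TH library here too, and the log2 fold change was 1.96 ± 0.103 (adjusted p = 2.19e-09). Hcn4, best known from the pacemaker of the heart, averaged 6.68 ± 1.23 CPM in SYN, against 2.94 ± 0.759 CPM in TH (log2 1.21, adjusted p = 0.000747). Hcn3 missed the threshold with a log2 fold change of 0.53 (adjusted p = 0.0506) and passed it without SYN at 5 months replicate 4 (0.62, adjusted p = 0.0232) or with all 16 libraries in the fit (0.52, adjusted p = 0.0459). Exons of Hcn3 share 711 bases with Pklr on the opposite strand.

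Markers of several cell types moved along with this comparison. Summed over their lists, excitatory neuron markers were at 4873 to 6025 CPM in SYN, against 1738 to 2044 CPM in TH, with 5 of 8 genes higher and none lower. Interneuron markers were at 530.0 to 670.2 CPM in SYN, against 413 to 536 CPM in TH, with 4 of 10 genes higher and 3 lower. Astrocyte markers were at 6606 to 7641 CPM in SYN, against 2936 to 3517 CPM in TH, with 9 of 10 genes higher, and all 10 microglia markers were higher, with sums of 224 to 269 CPM in SYN, against 109 to 119 CPM in TH. Oligodendrocyte precursor markers were at 321 to 365 CPM in SYN, against 168 to 193 CPM in TH, with 7 of 8 genes higher. Myelin markers were at 2350 to 2902 CPM in SYN, against 1599 to 1795 CPM in TH, with 6 of 10 genes higher. Olfactory neuron markers were at 271 to 301 CPM in SYN, against 159 to 188 CPM in TH, with 5 of 6 tested genes higher. None of either list was lower. Most of the olfactory sums was Gnal, which averaged 201 CPM in SYN, against 138 CPM in TH. Endothelial and mural cell markers were at 49.0 to 89.6 CPM in SYN, against 222 to 357 CPM in TH, with 12 of 14 genes lower and none higher. No marker list had a gene at 0 in every library. Their part in the channel results was not tested, and in such bulk material fewer cells or endings of a type and less RNA in each cannot be told apart.

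Genes listed as partners of these channels gave a mixed picture. Of 12 sodium channel partners, 7 were higher and 2 lower in SYN, with a median log2 fold change of 0.41. The paranodal adhesion genes Cntnap1 (log2 1.25, adjusted p = 4.17e-08) and Cntn1 (log2 0.84, adjusted p = 1.47e-06) were higher, while Fgf12 (log2 −0.45, adjusted p = 0.000293) and Fgf14 (log2 −0.36, adjusted p = 0.00467), which bind the tail of the sodium pore, were lower. Of 19 tested calcium channel partners, 13 were higher and 1 lower, with a median of 0.71. Cacng4 (log2 1.49, adjusted p = 1.01e-07), named as a calcium channel gamma subunit but known for accompanying AMPA receptors, and Cbarp (log2 1.44, adjusted p = 3.13e-08), which binds beta subunits, led the higher genes. The higher genes also held Cacng2, Cacng3, Cacng5, Cacng7 and Cacng8, which share the gamma subunit name with Cacng4. The lower gene was Stac3, a muscle calcium channel adaptor, at 0.457 ± 0.336 CPM in SYN, against 3.04 ± 1.02 CPM in TH (log2 −2.63, adjusted p = 0.000568). Of 4 tested HCN partners, Vapb was higher (log2 0.55, adjusted p = 0.000113) and Flna, the actin cross-linker filamin A, was lower (log2 −1.69, adjusted p = 1.79e-06). All 4 genes of the sodium leak channel NALCN were higher, led by Unc79 (log2 0.67, adjusted p = 1.84e-05) and Unc80 (log2 0.64, adjusted p = 8.46e-06). Called genes made up 75% of the sodium list and 73.7% of the calcium list, beside 50.1% of all genes tested. The HCN list stood at 50%, close to that share, and the NALCN list at 100%.

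Per kb of gene model, the order of levels was not the same in the 2 fractions. In SYN at 5 months high levels were found for Hcn2 with 61.2 ± 5.81 CPM per kb, Scn8a with 59.9 ± 6.30 and Scn2b with 55.2 ± 4.13. Their ranges of mean ± SD overlapped. Cacnb3, Cacna1a and Cacna1e followed with 46.5 ± 1.28, 43.5 ± 3.62 and 40.5 ± 3.95 CPM per kb. The range of Cacna1a overlapped those of Cacnb3 and Cacna1e, while the ranges of Cacnb3 and Cacna1e did not overlap. In TH, Scn2b had 26.4 ± 1.12 CPM per kb and Scn8a had 22.6 ± 1.76, while Hcn2 stood at 16.1 ± 2.13, next to Cacna1e with 17.8 ± 1.25 and Cacnb4 with 17.8 ± 0.773. These values rest on the gene model lengths in the count table, which differed from GENCODE vM21 for 10 of the 35 genes. The table has 3695 bases for Cacna2d3, 3120 for Cacnb3, 3798 for Hcn4 and 9242 for Cacna1d, where the annotation has 8720, 4010, 6118 and 12621 bases. Levels per kb of these 4 genes, their place among other genes and the family shares that include them depend on which length is used, and no rank of Cacnb3 against Cacnb4 in TH is read from them.

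Within families, the share of each gene in the summed counts per kb was compared between fractions. Hcn2 made up 85.4% ± 0.502 of the HCN family in SYN and 68.2% ± 2.44 in TH (SD, n = 4 each). In the beta family Cacnb3 made up 62.2% in SYN and 39.2% in TH, while Cacnb4 made up 17.8% ± 0.875 in SYN and 32% ± 1.58 in TH. Among calcium pores Cacna1d made up 4.90% in SYN and 10.9% in TH, and Cacna1i 11.1% in SYN and 7.01% in TH. Among sodium pores Scn3a made up 5.40% ± 0.396 in SYN and 8.86% ± 0.827 in TH, or 3.32% in SYN and 5.45% in TH with Scn2a1 counted in the family.

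Of the shares, 6 were tested in each of 4 comparisons by a two-sided exact permutation test. Between SYN and TH at 5 months the shares of Hcn2, Cacnb4, Scn3a, Cacna1a and Cacna2d1 each gave an exact p = 0.0286, the smallest that 4 against 4 libraries allow, with groups that did not overlap. After Benjamini-Hochberg adjustment over the 24 tests that p was 0.0527, so no share passed a threshold of 0.05. For a share at that smallest p, the adjusted value depends only on how many of the 24 tests reach it. It therefore does not tell these shares apart. The share of Scn4b was 15.5% ± 1.80 in SYN and 13.5% ± 1.99 in TH (exact p = 0.171).

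**Figure D3:**
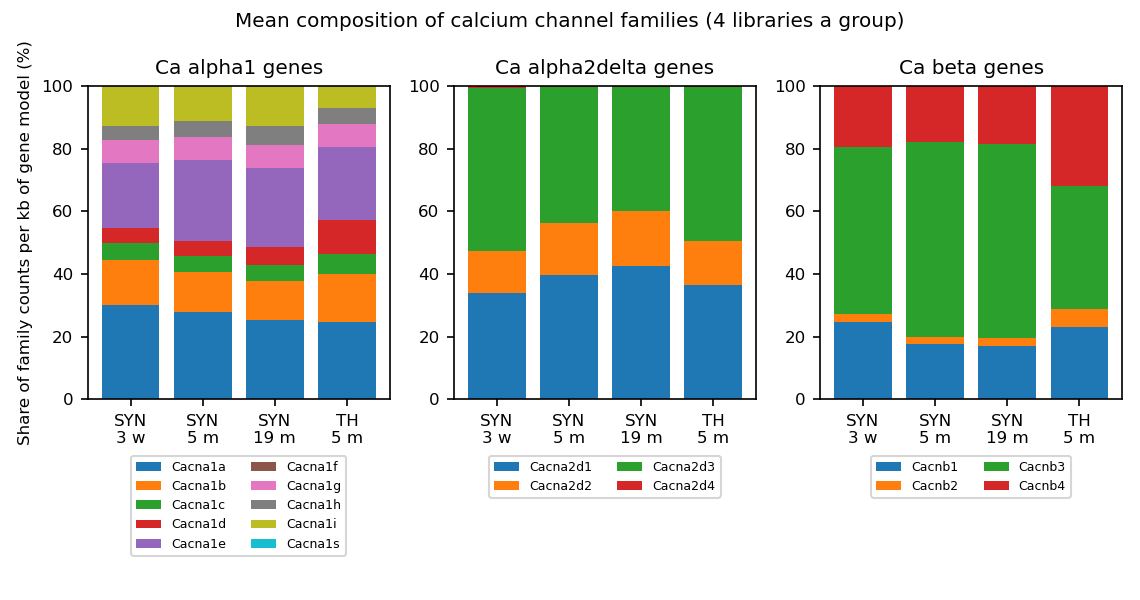
Mean share of each gene in its family's summed counts per kb of gene model, in percent, for calcium alpha1, alpha2delta and beta genes, in 4 groups of 4 libraries. Cacnb3 fills 62.2% of the beta bar in SYN at 5 months and 39.2% in TH, and Cacnb4 fills 17.8% of the beta bar in SYN and 32% in TH.

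The second question was how channel mRNAs in synaptosomes differ between ages. At 5 months against 3 weeks, 10 of 32 tested channel genes were higher and 3 lower, and at 19 months against 3 weeks 11 were higher and 2 lower. The called genes thus made up 40.6% of the channel genes at each of the 2 ages, beside 24.6% of the 15344 genes tested at 5 months (13.3% higher, 11.3% lower) and 19.4% at 19 months (10% higher, 9.44% lower). Groups did not overlap for 37.5% of the channel genes at 5 months, beside 22.8% of all genes, and for 34.4% at 19 months, beside 22.9%. The median log2 fold change of the channel genes was 0.17 at 5 months and 0.27 at 19 months, while that of all genes was within 0.01 of 0. Both comparisons use the same 3-week libraries and are therefore not independent.

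Between 19 and 5 months no channel gene passed the adjusted threshold with edgeR or with DESeq2, beside 0.3% of all genes with edgeR (0.13% higher, 0.169% lower). Only Cacna1d had an unadjusted p under 0.05 (log2 0.22, adjusted p = 0.361 with edgeR). Log2 fold changes ran between −0.40 for Scn9a and 0.33 for Hcn4, with a median of 0.09. Groups did not overlap for 3.12% of the channel genes, beside 8.16% of all genes.

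**Figure D4:**
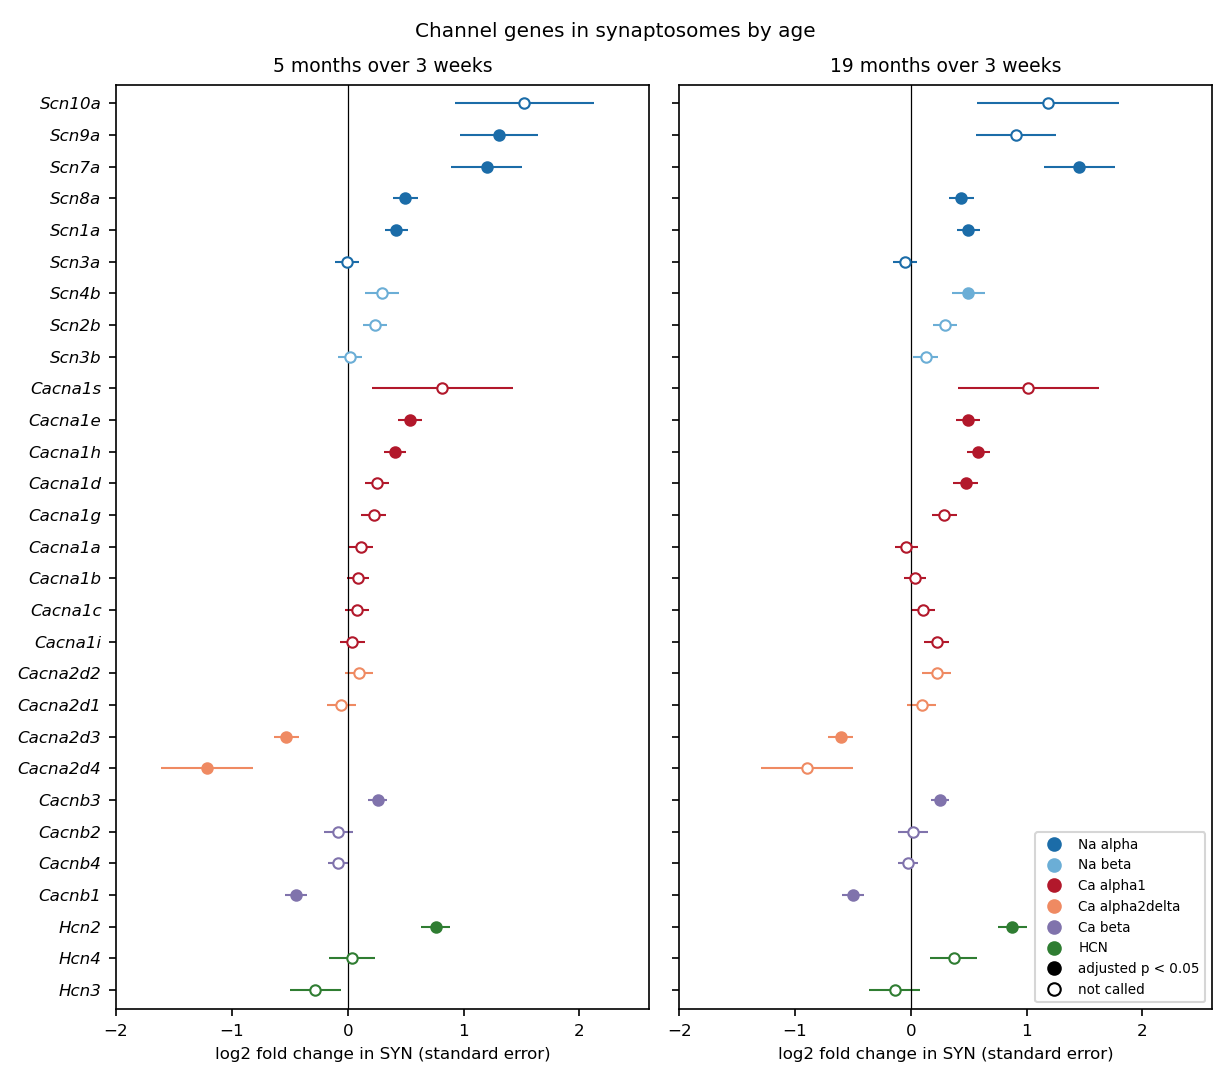
Log2 fold change of 29 tested channel genes in SYN, at 5 months over 3 weeks (left) and at 19 months over 3 weeks (right), with standard errors; filled points passed the adjusted p. Hcn2, Scn8a, Cacna1e and Cacna1h are filled to the right of 0 in both panels, and Cacnb1 and Cacna2d3 to the left; both panels use the same 3-week libraries.

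Among sodium pores the widely expressed Scn8a and Scn1a and the rare Scn7a and Scn9a were higher at 5 months than at 3 weeks. Scn8a was at 553, 699, 708 and 766 CPM at 3 weeks, 963, 1007, 1011 and 799.7 CPM at 5 months, and 740.4, 944, 993 and 969 CPM at 19 months. The 5-month libraries all stood above those of 3 weeks, while the lowest 19-month library fell within the 3-week range. Its log2 fold change over 3 weeks was 0.50 ± 0.108 at 5 months (adjusted p = 0.00123) and 0.43 ± 0.108 at 19 months (adjusted p = 0.00474). Scn1a averaged 178 ± 23.9 CPM at 3 weeks, 234 ± 26.5 CPM at 5 months and 248 ± 10.6 CPM at 19 months. Both older groups were clear of the 3-week libraries, by 0.42 at 5 months (adjusted p = 0.00236) and 0.49 at 19 months (adjusted p = 0.000619) on the log2 scale. Scn3a, the embryonic pore, showed no call, with log2 fold changes of −0.00 ± 0.104 at 5 months (adjusted p = 0.984) and −0.05 ± 0.105 at 19 months (adjusted p = 0.786). As a share of sodium pores per kb, Scn3a made up 7.49% ± 0.771 at 3 weeks, 5.40% ± 0.396 at 5 months and 5.32% ± 0.266 at 19 months. Each older age was without overlap with 3 weeks (exact permutation p = 0.0286, adjusted p = 0.0527), which does not pass after adjustment.

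Scn7a and Scn9a had steep differences on few reads. Scn7a was at 1.14, 4.05, 2.09 and 1.55 CPM at 3 weeks, 3.12, 5.06, 6.79 and 5.24 CPM at 5 months, and 5.16, 7.65, 5.30 and 6.11 CPM at 19 months. The 5-month libraries overlapped those of 3 weeks and the 19-month libraries did not, with log2 fold changes of 1.20 (adjusted p = 0.00518) and 1.45 (adjusted p = 0.00115). Scn9a was at 1.06, 1.11, 1.47 and 1.76 CPM at 3 weeks, 2.34, 3.12, 3.64 and 4.11 CPM at 5 months, and 1.45, 3.72, 2.56 and 2.28 CPM at 19 months. It was called at 5 months (log2 1.31, adjusted p = 0.00532), without overlap, and not at 19 months (log2 0.91, adjusted p = 0.0638), where it passed with DESeq2 (0.92, adjusted p = 0.0461) and without SYN at 19 months replicate 1 (1.10, adjusted p = 0.0288). Scn10a was not called at either age with edgeR (adjusted p = 0.0644 at 5 months and 0.189 at 19 months). Its 5-month libraries, at 0.808 to 1.25 CPM, were all above the 3-week libraries, at 0.17 to 0.588 CPM, and DESeq2 called it at 5 months (log2 1.55, adjusted p = 0.0413). Olfactory neuron markers also differed, with sums of 220 to 253 CPM at 3 weeks, 271 to 301 CPM at 5 months and 249 to 300 CPM at 19 months, and 4 of 7 tested genes higher at 5 months and 2 of 7 at 19 months. Most of these sums was Gnal, which averaged 172 CPM at 3 weeks, 201 CPM at 5 months and 176 CPM at 19 months. Nuclear RNAs summed to 896 to 1207 CPM at 3 weeks, 1630 to 6908 CPM at 5 months and 1697 to 2594 CPM at 19 months. The part of either in these values was not tested.

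Among sodium beta genes, Scn4b averaged 93.0 ± 21.0 CPM at 3 weeks, 112 ± 15.7 CPM at 5 months and 130.1 ± 16.6 CPM at 19 months, and was called at 19 months (log2 0.50, adjusted p = 0.0186), a call lost without SYN at 19 months replicate 2 (0.47, adjusted p = 0.0522) or replicate 4 (0.44, adjusted p = 0.0613). At 5 months it was not called with edgeR, but it was with no filter on low counts (0.28, adjusted p = 0.0339). Scn2b was at the threshold at 19 months without passing it (log2 0.29, adjusted p = 0.05). It passed with DESeq2 (0.30, adjusted p = 0.0397), with DESeq2 size factors, upper-quartile scaling or mitochondrial genes removed, and with either other filter on low counts (adjusted p of 0.0291 to 0.0431 over these). It also passed without SYN at 19 months replicate 1 (0.37, adjusted p = 0.0134) or SYN at 3 weeks replicate 4 (0.39, adjusted p = 0.011), and at 5 months without SYN at 3 weeks replicate 4 (0.33, adjusted p = 0.027). Scn3b was not called.

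Calcium pores differed among themselves by age. Cacna1e, the R-type pore, was at 596, 757, 687 and 808 CPM at 3 weeks, 945, 1096, 1111 and 920.2 CPM at 5 months, and 843, 1009.7, 1126 and 981 CPM at 19 months. Every older library was above every 3-week library, by 0.54 ± 0.104 at 5 months (adjusted p = 0.000348) and 0.49 ± 0.104 at 19 months (adjusted p = 0.00112) on the log2 scale. The T-type pore Cacna1h was at 55.3, 63.6, 56.7 and 65.0 CPM at 3 weeks, 77.1, 79.8, 87.3 and 70.04 CPM at 5 months, and 76.6, 97.8, 89.8 and 92.2 CPM at 19 months. It too was free of overlap, with 0.41 at 5 months (adjusted p = 0.00286) and 0.58 at 19 months (adjusted p = 9.36e-05). The L-type pore Cacna1d was called at 19 months (log2 0.47, adjusted p = 0.00196) with 60.3 ± 5.48 CPM at 3 weeks, 70.8 ± 11 CPM at 5 months and 82.8 ± 8.03 CPM at 19 months. At 5 months it missed the threshold (log2 0.25, adjusted p = 0.0798) and passed it without SYN at 5 months replicate 4 (0.31, adjusted p = 0.0449).

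The pores of transmitter release gave no such call. Cacna1a was at 403, 476, 452 and 536 CPM at 3 weeks, 506, 529, 516 and 437 CPM at 5 months, and 372, 505, 467 and 454 CPM at 19 months. The 3 ages overlapped, with log2 fold changes over 3 weeks of 0.11 ± 0.1 at 5 months (adjusted p = 0.443) and −0.04 ± 0.1 at 19 months (adjusted p = 0.835). Cacna1b likewise had 0.09 ± 0.0931 at 5 months and 0.04 ± 0.0933 at 19 months, and Cacna1c, Cacna1i and Cacna1s were not called at either age. Cacna1g missed the threshold at 19 months (log2 0.29, adjusted p = 0.0562) and passed it with DESeq2 (0.30, adjusted p = 0.0475), with the 3 other scalings and both other filters (adjusted p of 0.0357 to 0.0483), and without SYN at 19 months replicate 1 (0.35, adjusted p = 0.0247) or SYN at 3 weeks replicate 4 (0.34, adjusted p = 0.0375). As a share of calcium pores per kb, Cacna1a made up 30.2% ± 1.02 at 3 weeks, 27.9% ± 0.915 at 5 months and 25.2% ± 1.31 at 19 months. The 19-month libraries were all below those of 5 months and of 3 weeks (exact p = 0.0286 for each, adjusted p = 0.0527 over the 24 tests), which does not pass after adjustment.

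**Figure D5:**
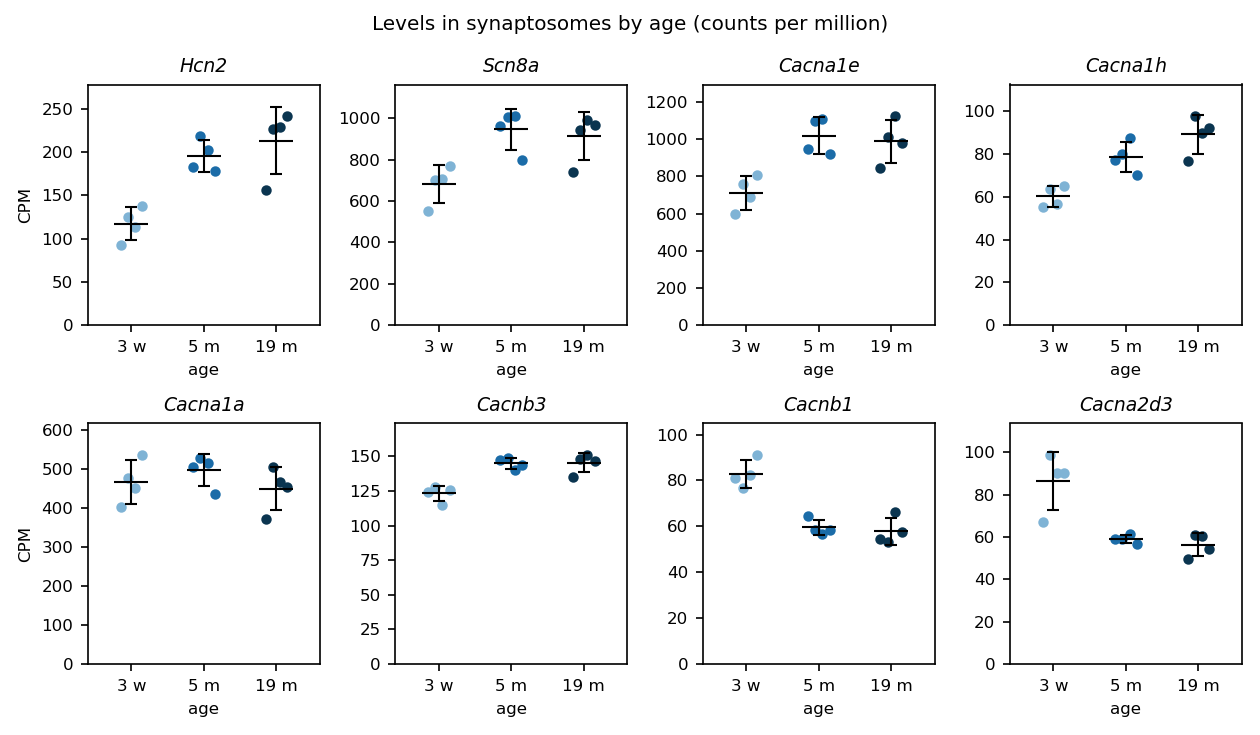
Level of 8 channel genes in SYN at 3 weeks, 5 months and 19 months, in CPM from 0; points are the 4 libraries of each age, with mean and SD. Hcn2, Cacna1e and Cacna1h stand higher in all older libraries than in any 3-week library, Cacnb1 and Cacna2d3 stand lower, and Cacna1a overlaps at all ages.

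The auxiliary calcium channel genes held the genes that were lower after 3 weeks. Cacna2d3 was at 67.1, 98.9, 90.4 and 90.4 CPM at 3 weeks, 59.2, 59.1, 61.7 and 56.5 CPM at 5 months, and 49.8, 61.0, 60.7 and 54.2 CPM at 19 months. The older libraries were all lower, with log2 fold changes of −0.53 ± 0.106 at 5 months (adjusted p = 0.000522) and −0.61 ± 0.106 at 19 months (adjusted p = 0.000156). Cacnb1, the beta subunit also used by skeletal muscle, was at 80.9, 76.5, 82.3 and 91.2 CPM at 3 weeks, 64.5, 58.4, 56.8 and 58.4 CPM at 5 months, and 54.4, 53.1, 66.3 and 57.8 CPM at 19 months. It too was lower in every older library, with log2 fold changes of −0.45 ± 0.0945 at 5 months (adjusted p = 0.000863) and −0.50 ± 0.095 at 19 months (adjusted p = 0.000358). The rare Cacna2d4 averaged 2.99 ± 0.883 CPM at 3 weeks, 1.27 ± 0.586 CPM at 5 months and 1.61 ± 0.674 CPM at 19 months and was called at 5 months only (log2 −1.21, adjusted p = 0.0257). That call was lost without SYN at 5 months replicate 1 (−0.97, adjusted p = 0.0793) or replicate 4 (−1.14, adjusted p = 0.0546), and without SYN at 3 weeks replicate 2 (−1.13, adjusted p = 0.0749) or replicate 3 (−1.05, adjusted p = 0.108). Cacna2d1 and Cacna2d2 were not called at either age. Per kb, the share of Cacna2d1 in its family was 34.0% ± 2.24 at 3 weeks, 39.6% ± 1.16 at 5 months and 42.4% ± 1.49 at 19 months (exact p = 0.0286 for each older age against 3 weeks, adjusted p = 0.0527).

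Cacnb3 was 1.20-fold higher at 5 months and 1.19-fold higher at 19 months than at 3 weeks. It was at 125, 128, 115 and 125 CPM at 3 weeks, 147, 149, 140.2 and 143 CPM at 5 months, and 135, 148, 151 and 146 CPM at 19 months. All older libraries were higher, with log2 fold changes of 0.26 ± 0.0808 at 5 months (adjusted p = 0.0191) and 0.25 ± 0.081 at 19 months (adjusted p = 0.0276). The 5-month call was lost without SYN at 3 weeks replicate 3 (0.23, adjusted p = 0.0852) and with no filter on low counts (0.24, adjusted p = 0.0734). The 19-month call was lost without SYN at 3 weeks replicate 3 (0.22, adjusted p = 0.114), without SYN at 19 months replicate 2 (0.24, adjusted p = 0.0764), replicate 3 (0.23, adjusted p = 0.0876) or replicate 4 (0.25, adjusted p = 0.0674), and with no filter (0.24, adjusted p = 0.0985). Cacnb2 and Cacnb4 were not called at either age.

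Oligodendrocyte lineage markers were lower after 3 weeks. Myelin markers summed to 7455 to 10509 CPM at 3 weeks, 2350 to 2902 CPM at 5 months and 2327 to 3271 CPM at 19 months, with 9 of 10 genes lower at each older age. Oligodendrocyte precursor markers summed to 622 to 781 CPM at 3 weeks, 321 to 365 CPM at 5 months and 280 to 345 CPM at 19 months, with all 8 genes lower at 5 months. Astrocyte markers summed to 6815 to 9952 CPM at 3 weeks, 6606 to 7641 CPM at 5 months and 6313 to 7884 CPM at 19 months. Of these 10 genes none was higher and 2 lower at 5 months, and 1 higher and 2 lower at 19 months. Of 12 tested endothelial and mural cell markers 5 were higher at 5 months and 1 at 19 months, with none lower. Excitatory neuron markers summed to 4496 to 5178 CPM at 3 weeks, 4873 to 6025 CPM at 5 months and 4393 to 5345 CPM at 19 months, with ranges that overlap. Most of these sums was Camk2a, which averaged 3743 CPM at 3 weeks, 4643 CPM at 5 months and 4040 CPM at 19 months. Of the 8 excitatory markers 1 was higher and 2 lower at 5 months than at 3 weeks (median log2 −0.16), and 1 was higher and 4 lower at 19 months (median log2 −0.29). Interneuron markers summed to 445 to 609 CPM at 3 weeks, 530 to 670 CPM at 5 months and 606 to 753 CPM at 19 months. Of these 10 genes 2 were higher and 1 lower at 5 months, and 3 higher and none lower at 19 months. Microglia markers summed to 161 to 240 CPM at 3 weeks, 224 to 269 CPM at 5 months and 278 to 433 CPM at 19 months. Of these 10 genes 4 were higher at 5 months and 6 at 19 months, with none lower. The part of these markers in the lower levels of Cacnb1, Cacna2d3 and Cacna2d4 was not tested, nor was it in the higher levels of other channel genes.

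Hcn2 was higher at both older ages than at 3 weeks. It was at 92.8, 125, 114 and 138 CPM at 3 weeks, 182, 219, 202 and 179 CPM at 5 months, and 156, 227, 229 and 242 CPM at 19 months. Every older library was above every 3-week library, and the level was 1.69-fold that of 3 weeks at 5 months (log2 0.76 ± 0.123, adjusted p = 7.6e-05) and 1.84-fold at 19 months (log2 0.88 ± 0.124, adjusted p = 1.65e-05). Hcn3 and Hcn4 were not called. Hcn2 made up 76.9% ± 0.986 of the HCN family per kb at 3 weeks, 85.4% ± 0.502 at 5 months and 85.2% ± 1.53 at 19 months. The shares at 5 and 19 months were each without overlap with 3 weeks (exact p = 0.0286, adjusted p = 0.0527), and they did not separate from each other (exact p = 0.886).

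Among sodium channel partners Nfasc, neurofascin, was lower at both older ages than at 3 weeks; it clusters sodium channels at initial segments and nodes and is also made by myelinating glia. It averaged 242 ± 9.80 CPM at 5 months, against 612 ± 90.8 CPM at 3 weeks (log2 −1.31, adjusted p = 3.28e-10), and at 19 months it was again lower than at 3 weeks (log2 −1.20, adjusted p = 1.99e-09). At 5 months against 3 weeks 1 of 12 sodium channel partners was higher (Fgf11, log2 0.58, adjusted p = 0.00616) and 3 were lower, among them Fgf13 (log2 −0.70, adjusted p = 2.08e-05). At 19 months against 3 weeks 3 were lower and none higher, with Fgf13 at −0.69 (adjusted p = 3.63e-05). Called genes made up 33.3% of this list at 5 months and 25% at 19 months, beside 24.6% and 19.4% of all genes.

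Of 17 tested calcium channel partners, 5 were higher and 2 lower at 5 months, and 4 higher and 4 lower at 19 months, against 3 weeks. That is 41.2% and 47.1% of this list, beside 24.6% and 19.4% of all genes. Gem, a small GTPase that holds calcium channels back through their beta subunit, averaged 5.00 ± 1.02 CPM at 5 months, against 1.44 ± 0.397 CPM at 3 weeks (log2 1.82, adjusted p = 3.92e-05), and was higher by 1.87 at 19 months (adjusted p = 3.62e-05). Stac2, an adaptor of L-type channels, was higher by 0.80 at 5 months (adjusted p = 3.26e-07). Cacng3, named as a gamma subunit like Cacng4 and Cacng5 (log2 −0.38, adjusted p = 0.00672), and Cbarp (log2 −0.31, adjusted p = 0.0247) were lower at 5 months. At 19 months Cacng5 was higher than at 3 weeks (log2 1.42, adjusted p = 8.88e-06), and Akap5, an anchor of kinases at L-type channels (log2 −0.63, adjusted p = 1.74e-05), and Cacng4 (log2 −0.53, adjusted p = 0.00115) were lower.

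Akap5 was also the 1 partner of any list called between 19 and 5 months, with 110.0 ± 10.0 CPM at 19 months, against 148 ± 11.9 CPM at 5 months (log2 −0.44, adjusted p = 0.035). That is 5.88% of the tested calcium partners, beside 0.3% of all genes. The count of calcium partners called there was 0 without any single library of these groups except SYN at 5 months replicate 2, without which it was 2.

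Pex5l, the TRIP8b subunit that controls where HCN channels go, was the HCN partner called at 5 months against 3 weeks. It averaged 135 ± 7.91 CPM at 5 months, against 96.6 ± 10.4 CPM at 3 weeks (log2 0.50, adjusted p = 0.000248), and the count of HCN partners called was 2 without SYN at 5 months replicate 2 or SYN at 3 weeks replicate 1. No HCN partner was called at 19 months against 3 weeks with edgeR, and 1 was without SYN at 3 weeks replicate 1. Unc80 and Unc79, the large subunits of the NALCN complex, were higher at 5 months (log2 0.74, adjusted p = 5.67e-07, and log2 0.30, adjusted p = 0.0252) and at 19 months (log2 0.57, adjusted p = 3.07e-05, and log2 0.31, adjusted p = 0.0223). One of the 2 NALCN calls at 5 months was lost without SYN at 5 months replicate 1 or 3 or SYN at 3 weeks replicate 3, and 1 of the 2 at 19 months without SYN at 19 months replicate 2, 3 or 4 or SYN at 3 weeks replicate 3. Called genes made up 25% of the tested HCN partners at 5 months and 0% at 19 months, and 50% of the NALCN genes at each age. The shares of all genes were 24.6% and 19.4%.

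The authors also deposited tables of splicing between ages in synaptosomes, made with LeafCutter, which compares the usage of introns that share a splice site, and DIEGO, which compares junctions within a gene. In the authors' deposited table from LeafCutter 0 of 36 channel gene clusters passed an adjusted p of 0.05 at 5 months against 3 weeks (7 had an unadjusted p under 0.05), beside 6.61% of all clusters. In the authors' deposited table for 19 against 5 months 0 of 32 passed (2 unadjusted), beside 0.768%, and in that for 19 months against 3 weeks 2 of 34, or 5.88%, passed, beside 4.81%. These tables give no sample values, so no spread between libraries can be stated.

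The first event was at the start of Cacnb4. In the authors' deposited table the intron chr2:52675812-52676020, which joins an alternative first exon to the next exon, had a usage of 0.426 at 19 months and 0.278 at 3 weeks (the authors' adjusted p = 0.0169). The intron chr2:52675812-52676270, which follows the first exon whose coding part is shown above, had a usage of 0.574 at 19 months and 0.722 at 3 weeks in the authors' deposited table. At 5 months against 3 weeks the authors' deposited table had 0.390 and 0.278 for the alternative first exon (adjusted p = 0.0639), and for 19 against 5 months 0.426 and 0.390 (adjusted p = 0.612).

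The second event was in Cacna1b, around the cassette exon and the CAG at the start of the next exon shown above. In the authors' deposited table the intron chr2:24679641-24685767, which skips the cassette exon and uses the later acceptor that drops the CAG, had a usage of 0.0306 at 19 months and 0.145 at 3 weeks (the authors' adjusted p = 0.027 for the cluster). Skipping with the CAG kept, chr2:24679644-24685767, had 0.636 at 19 months and 0.639 at 3 weeks in the authors' deposited table. Inclusion with the CAG kept, chr2:24679644-24682975, had 0.142 at 19 months and 0.0566 at 3 weeks in the authors' deposited table. Between 19 months and 3 weeks the lower usage of the later acceptor was found on the skipped form. On the included form, chr2:24679641-24682975, the authors' deposited table had 0.0947 at 19 months and 0.0935 at 3 weeks. At 5 months against 3 weeks the cluster did not pass (the authors' adjusted p = 0.208). There the authors' deposited table had lower usage of the later acceptor on both forms. It held 0.0658 at 5 months and 0.146 at 3 weeks for the skipped form, and 0.0611 and 0.0937 for the included form. These p-values belong to the cluster, so the single introns were not tested.

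In the authors' deposited table from DIEGO 9 of 641 channel gene junctions passed a q of 0.05 at 5 months against 3 weeks. The share of all junctions there was 1.48%. At 19 months against 3 weeks 3 of 638 passed in the authors' deposited table, beside 0.69% of all junctions. At 19 against 5 months 0 of 632 passed (5 with an unadjusted p under 0.05), beside 0%. There the smallest q of any junction in the authors' deposited table was 0.07, so no gene could have a call. All junctions that passed stood at the smallest p-value that the authors' deposited table holds, 0.0209, so they cannot be ranked by p. They included junctions of Scn3a, Cacna1a, Cacna1d, Cacna2d1 and Cacna2d2 at 5 months and of Cacna1b and Cacna1d at 19 months in the authors' deposited table. The Cacna1d junction, chr14:30482234-30484458 at both ages, met no annotated exon at either end. The Cacna1a junction chr8:84594221-84601384 and the Cacna1b junction chr2:24719045-24720056 matched no annotated intron either. One of them was the Cacna1b intron chr2:24679641-24685767, with a score of 1.31 in the authors' deposited table. No source used here gives the direction or log base of that score, so no direction is read from it.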

How the data were processed

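Total RNA libraries (SMARTer Stranded Total RNA-Seq Pico Input kit, per the labels' protocols) were processed with bcl2fastq 2.20.0.422, cutadapt 1.18, Trimmomatic 0.38 and featureCounts on GRCm38.p6, per the submitters' processing notes. For the aligner and the strand setting, the sources used here give nothing. The authors deposited raw counts per gene for all 16 libraries, and comparison tables from LeafCutter (intron usage as a fraction, with p-values) and DIEGO (an abundance change score, with p-values and q-values). Channel genes, partner lists and marker lists were chosen with earlier results of these data known.

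Counts were tested with edgeR 4.0.16 (robust quasi-likelihood, filterByExpr, TMM, Benjamini-Hochberg over all genes, adjusted p under 0.05) in R 4.3.3. SYN against TH used 8 libraries, and ages used the 12 SYN libraries in 1 fit. A standard error is the log2 fold change over the square root of F. CPM in the text were scaled over all 16 libraries, so ratios of CPM can differ slightly from fitted fold changes. Family shares used exact permutation tests in scipy 1.17.1. No library pair had identical counts. Alternatives were DESeq2 1.42.0, other scalings and filters, a replicate block, other sets of libraries, and each library left out. The tests were checked on simulated data. Of the tested channel genes 29 are described one by one and the others are not reported here, although counts over the channel genes include them; of each partner list up to 2 called genes a direction and comparison with the largest change.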

Additional observations from a re-analysis of the deposited data

Results flagged for a closer look

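Of 116 groups of 4 libraries, 1 for each channel gene described and group, 4 held a library whose gap to its nearest neighbour was past Dixon's 95% limit for 4 values. Chance alone flags about 1 in 20 groups, so this number is not in itself unusual. Cacna1g was at 80.1 CPM in SYN at 3 weeks replicate 1, below the 104 to 108 CPM of the other 3 libraries. Scn2b was at 222 CPM in SYN at 19 months replicate 1, where the others were at 274 to 282 CPM. Cacna1b was at 192 CPM in SYN at 5 months replicate 4, where the others were at 200.02 to 202 CPM. Cacna2d4 was at 0.711 CPM in TH replicate 1, where the others were at 1.68 to 1.82 CPM.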

How the results depend on the processing

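No channel gene that was called reversed its direction under any alternative. The count of called genes was 24 for SYN over TH (23 to 25 over 17 alternatives), 13 at 5 months over 3 weeks (10 to 16 over 18), 0 at 19 over 5 months in all 18, and 13 at 19 months over 3 weeks (11 to 16). Upper-quartile scaling moved the median of all genes in SYN over TH by −0.14 and the share of higher among called genes to 37.9%, against 48.8% with TMM; the median of the channel genes was then 0.65. Cacnb1 and Cacna2d3, not called, turned slightly negative with that scaling and with DESeq2 size factors. Cacna1d, also not called, was at −0.24 with upper-quartile scaling (adjusted p = 0.0579, edgeR) and −0.16 with DESeq2 size factors (adjusted p = 0.233, edgeR). In the count table a SYN and a TH library of the same replicate number at 5 months also share a second number in their column names, so they may come from the same preparation, which no source used here states. Their deviations correlated at 0.016 to 0.141, against −0.093 to 0.080 for other SYN and TH pairs. Not every library correlated best with its own number, and whether the libraries are paired was not settled. With a replicate block 24, 16, 0 and 15 channel genes were called in the 4 comparisons, in the order above. In SYN over TH no channel gene changed its call, and those gained were Scn2b, Scn4b and Cacna1d at 5 months over 3 weeks (adjusted p = 0.0313, 0.00639 and 0.0473 with edgeR) and Scn2b and Cacna1g at 19 months over 3 weeks (0.0119 and 0.0136). Apart from the replicate number, nothing in the labels or column names links libraries of different ages. The block therefore has no stated basis in the age comparisons.

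Counts of called partner genes moved in short lists. HCN partners at 5 months over 3 weeks, 1 as reported, were 2 with no filter or with the block, and 1 to 2 with a library left out. Calcium partners at 19 over 5 months, 1 as reported, were 4 with no filter, with the block or with only the 8 libraries compared, 2 with DESeq2, 0 with all 16 libraries or without both SYN at 5 months replicate 4 and SYN at 19 months replicate 1, and 0 to 2 with a library left out. HCN partners there, 0 as reported, were 1 with DESeq2, the block or only 8 libraries. NALCN genes at 5 and 19 months over 3 weeks, 2 each, were 1 to 2 with a library left out, and HCN partners at 19 months over 3 weeks 0 to 1. At 0.01 in place of 0.05, the authors' deposited table from LeafCutter called 0 channel gene clusters at 19 months over 3 weeks (2 at 0.05). With DIEGO 0 channel gene junctions passed 0.01 at 5 months (9 at 0.05) and at 19 months (3 at 0.05). The smallest q of any junction in the authors' deposited tables was 0.0464 at 5 months and 0.0489 at 19 months. No junction of any gene could therefore pass 0.01 with DIEGO. The causes of the other shifts were not tested. Genes at a few CPM, such as Scn10a, Scn9a and Cacna2d4, are limited by their few counts per library.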
